A study of Mus musculus with 17 samples.

Results

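Closely paired start sites of different genes are transcription start sites whose nearest neighbour on the chromosome belongs to another gene and lies 50 to 500 bp away. They were found from the start-site positions alone, and 1384 of 22330 start sites of RefSeq mRNAs (6.20%) met the rule, under 1356 gene symbols. Of these, 1336 were each other's nearest neighbour and formed 668 pairs, and the other 48 had a neighbour that was itself closer to another start site. The study digested chromatin with micrococcal nuclease (MNase), an enzyme that cuts DNA not held by protein, and sequenced the fragments left over. Mature sperm, in which protamines have replaced most histones, were collected by swim-up out of the epididymis tail and the vas deferens of C57/B6J mice aged 10 weeks and crosslinked with formaldehyde. Sperm were read as the supernatant of a standard digestion, and in 3 titrations with rising MNase units: unspun chromatin (0.5, 2, 10 and 50 units), supernatant (1, 5, 20 and 100 units) and pellet (1, 5, 20 and 100 units). They were set against the supernatant of E14 cells, an embryonic stem (ES) cell line of 129 X Ola background, kept feeder-free in medium with serum and LIF. The labels name no mutation or drug in any group.

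Most closely paired genes are transcribed away from each other from one stretch of DNA, an arrangement called a bidirectional promoter. Such promoters lie mostly in CpG islands, lack a TATA box more often than other promoters do, and often serve housekeeping genes such as those of DNA repair, mitochondria and the histones. A nucleosome covers about as much DNA as the spacing of many of these pairs, and the data give the fragments released from between the start sites and from each side of them.

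Of the 668 pairs, 585 (87.6%) were head-to-head, with the start sites turned away from each other. A further 65 were overlapping, so that each transcript ran across the other start site, 14 lay on the same strand, and 4 could not be assigned. The arrangement came from the DNA that the rows of a pair share, and matched the strands given by RefSeq in 510 of the 513 pairs where both were known. The median spacing was 171 bp, with 280 pairs under 150 bp apart, 177 from 150 to under 250 bp, 126 from 250 to under 350 bp and 85 from 350 bp up. High-CpG promoters made up 93.0% of the 1138 members that the authors had classed, against 64.2% of all classed start sites. The classes came with the deposited tables and were not used by the rule. Both start sites were high-CpG in 427 of the pairs, and in 189 cases over all start sites a single position carried more than 1 symbol.

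The promoters shown here are head-to-head pairs on which the results below turn. They were read from RefSeq's promoter table (GRCm38.p6), as the 250 bases before and 50 bases from the start site of the gene on the + strand. Capitals mark the DNA between both start sites, lower case the DNA on either side. The first 2 had the lowest share of sperm fragments relative to ES cells, Arsk/Ttc37 had the most sperm fragments of any pair, the next 2 held no fragment between their start sites in either library, Wdr83/Wdr83os held more signal there than in its flanks, and Sirt3/Psmd13 is a textbook bidirectional promoter of a mitochondrial deacetylase and a proteasome subunit.
Eif2b4/Snx17 (chr5:31193054-31193353, + strand): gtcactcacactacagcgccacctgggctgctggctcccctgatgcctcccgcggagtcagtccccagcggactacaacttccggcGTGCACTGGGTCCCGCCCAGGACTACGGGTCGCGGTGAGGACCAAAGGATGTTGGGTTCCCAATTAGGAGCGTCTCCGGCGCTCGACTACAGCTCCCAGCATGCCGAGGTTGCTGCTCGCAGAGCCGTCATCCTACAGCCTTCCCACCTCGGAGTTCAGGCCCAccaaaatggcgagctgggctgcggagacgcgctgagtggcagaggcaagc
Chmp1a/Spata33 (chr8:123212608-123212907, + strand): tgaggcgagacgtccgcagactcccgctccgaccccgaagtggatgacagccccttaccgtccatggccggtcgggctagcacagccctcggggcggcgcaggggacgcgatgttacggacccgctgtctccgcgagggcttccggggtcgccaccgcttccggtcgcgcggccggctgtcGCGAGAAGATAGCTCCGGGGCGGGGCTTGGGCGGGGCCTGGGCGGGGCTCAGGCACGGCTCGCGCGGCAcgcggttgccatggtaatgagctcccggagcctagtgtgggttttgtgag
Arsk/Ttc37 (chr13:76098484-76098783, + strand): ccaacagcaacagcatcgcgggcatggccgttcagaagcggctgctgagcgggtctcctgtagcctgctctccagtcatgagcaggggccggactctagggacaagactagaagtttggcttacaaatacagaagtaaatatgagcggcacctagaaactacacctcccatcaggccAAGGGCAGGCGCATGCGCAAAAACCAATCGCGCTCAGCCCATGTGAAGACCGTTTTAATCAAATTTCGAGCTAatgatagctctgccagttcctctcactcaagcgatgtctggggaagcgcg
Slc35a5/Atg3 (chr16:45158579-45158878, + strand): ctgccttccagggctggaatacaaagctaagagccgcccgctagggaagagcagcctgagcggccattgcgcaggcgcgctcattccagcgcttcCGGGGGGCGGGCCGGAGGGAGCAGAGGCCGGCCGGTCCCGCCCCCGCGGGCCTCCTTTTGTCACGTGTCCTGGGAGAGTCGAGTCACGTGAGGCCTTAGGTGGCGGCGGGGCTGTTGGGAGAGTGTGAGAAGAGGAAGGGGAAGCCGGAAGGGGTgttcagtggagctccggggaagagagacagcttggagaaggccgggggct
Recql/Golt1b (chr6:142386993-142387292, + strand): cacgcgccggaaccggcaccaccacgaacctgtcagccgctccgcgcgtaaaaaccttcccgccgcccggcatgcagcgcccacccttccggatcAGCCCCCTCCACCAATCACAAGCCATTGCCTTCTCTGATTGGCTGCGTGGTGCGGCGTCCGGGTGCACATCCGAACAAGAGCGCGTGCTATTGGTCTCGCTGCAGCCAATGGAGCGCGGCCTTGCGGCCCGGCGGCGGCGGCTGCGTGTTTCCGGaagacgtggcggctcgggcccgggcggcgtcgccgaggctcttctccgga
Wdr83/Wdr83os (chr8:85080713-85081012, + strand): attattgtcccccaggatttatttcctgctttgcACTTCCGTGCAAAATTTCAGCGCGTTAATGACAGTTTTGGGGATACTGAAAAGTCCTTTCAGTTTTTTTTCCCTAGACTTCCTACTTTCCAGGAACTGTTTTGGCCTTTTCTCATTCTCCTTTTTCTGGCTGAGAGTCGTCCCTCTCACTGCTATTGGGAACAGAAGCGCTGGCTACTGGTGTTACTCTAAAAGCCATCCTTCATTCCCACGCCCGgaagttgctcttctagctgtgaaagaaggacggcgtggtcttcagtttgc
Sirt3/Psmd13 (chr7:140882144-140882443, + strand): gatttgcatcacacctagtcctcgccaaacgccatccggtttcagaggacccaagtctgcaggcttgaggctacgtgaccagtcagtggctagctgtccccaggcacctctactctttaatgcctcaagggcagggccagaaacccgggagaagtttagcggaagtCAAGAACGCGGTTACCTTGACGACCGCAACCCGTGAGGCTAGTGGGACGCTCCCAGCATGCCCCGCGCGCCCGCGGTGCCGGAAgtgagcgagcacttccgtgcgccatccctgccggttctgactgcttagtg

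The stretch in capitals was 45.8% G or C with 7 CpG in its 216 bases at Wdr83/Wdr83os. It was 71.0% with 14 CpG in 155 bases at Slc35a5/Atg3, 66.5% with 17 CpG in 155 bases at Recql/Golt1b, and 78.3% with 9 CpG in 69 bases at Chmp1a/Spata33. The 2 pairs empty of fragments were thus richer in CpG per base than Wdr83/Wdr83os. These pairs were picked for extreme signal, and a link of signal with CpG was not tested. Of other pairs with high signal between their start sites, C8g/Fbxw5 and Bloc1s3/Trappc6a were high-CpG at both. Uqcr10/Zmat5 was not high-CpG at its only classed start site. Beyond these examples, 1139 of the 1356 member symbols (84.0%) had a promoter in the RefSeq table. Their windows had a median GC content of 62.3% and a median of 24 CpG, against 52.7% and 7 over all 27025 promoters.

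6 short motifs were searched on both strands of these windows, and none of them contains another. The windows of a pair can share much of their DNA, so a motif in the shared stretch counts for both genes. The ETS motif CCGGAAG, bound by GABPA and its relatives, was in 29.9% of member promoters, against 9.12% of all promoters. The YY1 motif AAGATGGCG was in 5.27% of member promoters, against 1.49%. The NRF1 motif GCATGCGC was in 6.23%, against 2.80%, and the SP1 motif GGGCGG in 67.3%, against 35.9%. CCAAT, the NF-Y motif, was in 44.2%, against 37.9%, and TATAAA, the TBP motif, in 5.62%, against 14.2%. CpG content differs between these sets, so the comparison was repeated among CpG-rich windows (at least 55% GC, with an observed over expected CpG of at least 0.6). There the ETS motif was in 32.2% of 867 member promoters, against 17.5% of 7430 others, and the YY1 motif in 5.88%, against 3.14%. SP1 was in 75.7% of the CpG-rich member promoters, against 79.5%, and NRF1 in 6.46%, against 6.04%. In the sequences printed above, the stretch between the start sites held the NRF1 and NF-Y motifs at Arsk/Ttc37, the ETS and SP1 motifs at Slc35a5/Atg3, the NF-Y and SP1 motifs at Eif2b4/Snx17, the NF-Y motif at Recql/Golt1b and at Wdr83/Wdr83os, and the SP1 motif at Chmp1a/Spata33. None of the 6 lay wholly between the start sites of Sirt3/Psmd13. The ETS motif ran across the start site of the gene on the + strand there, and at Recql/Golt1b and Wdr83/Wdr83os.

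Each group held 1 library, so no difference has a replicate check, and the 95% intervals, exact binomial ones on fragments, cover counting error only. Values are a pileup of size-selected fragments in 20 bp bins, or reads per 50 bp bin in the supernatant and pellet titrations, and were turned into fragments by the sum that an isolated fragment leaves. Counted once per pair, within 1000 bp of the midpoint, the standard sperm library held 17.1 fragments per pair and the ES library 30.2, while the titration libraries held 0.168 to 0.982. At this depth a single pair has a usable value in standard sperm and ES cells, and the titrations are read over pooled pairs. An isolated fragment covered 260 to 280 bp of the pileup tables, more than the spacing of most pairs, so signal between close start sites includes fragments centred outside them. Sperm and ES cells also differ in strain, in enzyme per cell and in crosslinking, which the labels give for sperm alone, and these cannot be told apart from cell type. Fewer packaged copies and fewer fragments released from them cannot be told apart either.

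Around their start sites, closely paired genes were depleted of fragments over a wider stretch upstream than genes that stand alone. At the 1058 high-CpG members the 200 bp upstream held 0.238 of the flank signal in standard sperm (0.216 to 0.261) and 0.246 in ES cells (0.226 to 0.266), where flanks are the DNA 1000 to 2000 bp away on each side. At 8116 isolated high-CpG start sites, with no start site of another gene within 5000 bp, the same window held 0.288 in sperm (0.281 to 0.295) and 0.353 in ES cells (0.347 to 0.360). From 200 to 500 bp upstream the members held 0.291 in sperm and 0.453 in ES cells, against 0.625 and 0.786 at isolated start sites. At a head-to-head pair with narrow spacing that stretch lies in the partner gene.

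Downstream the order turned. The 300 bp after the start site held 0.214 of the flanks in standard sperm at high-CpG members (0.197 to 0.232) and 0.391 in ES cells (0.371 to 0.413). At isolated high-CpG start sites it held 0.152 in sperm (0.148 to 0.156) and 0.292 in ES cells (0.287 to 0.296). The members were thus less depleted than isolated start sites inside the gene and more depleted before it, in both libraries, with intervals that did not overlap. From 500 to 1000 bp downstream the members were back at 0.780 in sperm and 0.917 in ES cells, against 0.631 and 0.782 at isolated start sites.

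**Figure D1:**
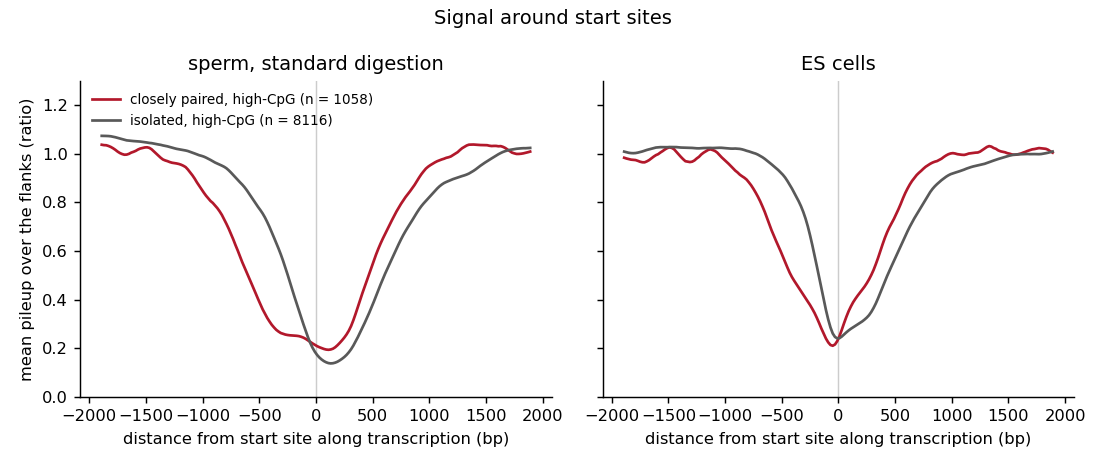
Mean pileup over the flanks (ratio, vertical axis) against distance from the start site in bp, running with transcription, in standard sperm (left) and ES cells (right). The 1058 high-CpG members lie below the 8116 isolated high-CpG start sites upstream (0.291 against 0.625 in sperm and 0.453 against 0.786 in ES cells from 200 to 500 bp) and above them downstream.

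Between the paired start sites the standard libraries of both cell types held few fragments. Pooled over the 668 pairs the signal there was 0.270 of the flanks in standard sperm (0.248 to 0.293) and 0.271 in ES cells (0.253 to 0.291), with flanks 1000 to 1500 bp from the midpoint of the pair. At isolated high-CpG start sites, windows of the same lengths placed upstream held 0.353 in sperm and 0.426 in ES cells. No fragment lay between the start sites at 203 pairs in sperm and 175 in ES cells, where the mean was 0.906 and 1.24 fragments per pair. Of 651 pairs with flank signal, 603 were below their flanks in sperm, 617 in ES cells and 575 in both. Only 6 were above their flanks in both, 42 in sperm alone and 28 in ES cells alone. Such counts of empty or low windows were not made at isolated start sites, so they support no statement on close pairing.

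Arrangement went with a difference between the standard sperm and ES libraries. Head-to-head pairs held 0.281 of the flanks between their start sites in standard sperm (0.258 to 0.306) and 0.256 in ES cells (0.237 to 0.277). The 65 overlapping pairs held 0.174 in sperm (0.126 to 0.235) and 0.368 in ES cells (0.306 to 0.443). The low value in sperm is that of the standard library alone. In the titrations overlapping pairs held more than head-to-head pairs in every library but the pellet at 5 units (0.819 against 1.94). Those values rest on 1.99 to 12.1 fragments between overlapping start sites. In unspun sperm at 50 units it was 2.58 (0.938 to 6.59), against 1.23 (0.824 to 1.77). Between overlapping start sites lies transcribed DNA of both genes, which at head-to-head pairs lies outside, and its part was not tested. The 14 same-strand pairs held too few fragments between their start sites to be read, at 3.90 in sperm and 9.07 in ES cells.

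The stretch between head-to-head start sites filled with spacing, in a different order in the libraries. At 245 pairs 50 to 150 bp apart it held 0.197 of the flanks in standard sperm (0.156 to 0.246) and 0.175 in ES cells (0.141 to 0.214). For the 151 pairs 150 to 250 bp apart it was 0.254 in sperm (0.211 to 0.303) and 0.178 in ES cells (0.147 to 0.214). The 116 pairs 250 to 350 bp apart held 0.353 in sperm (0.303 to 0.407) and 0.295 in ES cells (0.257 to 0.337), and the 73 pairs 350 to 500 bp apart 0.303 in sperm (0.254 to 0.360) and 0.366 in ES cells (0.319 to 0.419). In ES cells the pooled value was thus flat up to 250 bp and higher beyond, and all 4 classes were below isolated start sites over the same lengths (0.271, 0.357, 0.465 and 0.570 in rising order of spacing). In sperm the intervals of the 3 narrower classes held the isolated values (0.235, 0.301 and 0.379), and the widest class was below its own (0.467). For the class of 250 to 350 bp this rests on 8 histone pairs, without which it held 0.321 (0.273 to 0.377).

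**Figure D2:**
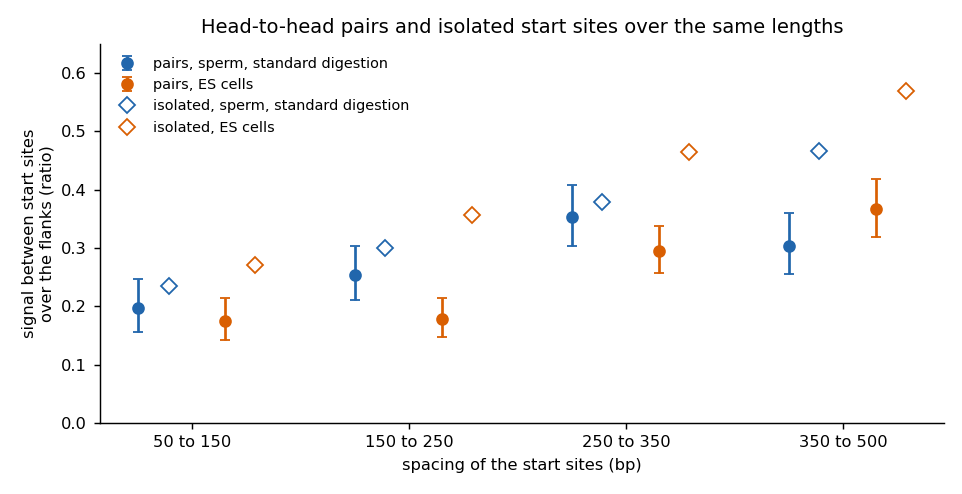
Signal between head-to-head start sites over the flanks (ratio, vertical axis) by spacing of the pair in bp, in standard sperm (blue, left of each class) and ES cells (orange). Filled points are the pooled pairs with 95% intervals that cover counting error only, and open diamonds are isolated high-CpG start sites over upstream windows of the same lengths, which reach 0.570 in ES cells at the widest spacing, against 0.366 for the pairs.

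At wider spacing the signal at the centre of the pair was above that at the start sites, with intervals that overlapped. In sperm, head-to-head pairs 250 to 350 bp apart had 0.382 of the flanks in the 80 bp at the midpoint (0.289 to 0.495) and 0.290 in the same width at the start sites (0.233 to 0.360). ES cells had 0.315 at the midpoint (0.245 to 0.403) and 0.272 at the start sites (0.224 to 0.328) of these pairs. At 350 to 500 bp the midpoint held 0.345 in sperm (0.236 to 0.487) and 0.431 in ES cells (0.324 to 0.562), against 0.254 and 0.298 at the start sites. The midpoint value was the higher one in all 4 cases, but on 33.1 to 67.7 fragments at the midpoint the intervals overlapped in each. Overlap of intervals does not settle such a difference, which was not tested.

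The whole depleted stretch measured wider in sperm than in ES cells, by a measure that depends on the level at which it is read. Measured at the level midway between its lowest point and the flanks, it spanned 1220 bp over all pairs in standard sperm and 900 bp in ES cells, against 940 and 760 bp at isolated high-CpG start sites. For head-to-head pairs it was 1080 bp in sperm and 780 bp in ES cells at a spacing of 50 to 150 bp, and 1580 bp in sperm and 920 bp in ES cells at 350 to 500 bp. These widths were also read at a lower level, 25% of the way from the lowest point to the flanks. They were then 780 bp in sperm and 340 bp in ES cells at the narrowest spacing, and 1140 and 660 bp at the widest. The libraries differ in depth, and its part in the difference between them was not tested. The pairs 250 to 350 bp apart were out of order in both libraries. In sperm they spanned 1240 bp, against 1340 bp for those 150 to 250 bp apart. In ES cells they spanned 1000 bp, against 840 bp at 150 to 250 bp and 920 bp at 350 to 500 bp. Just outside and inside the limits of the rule, pairs 1 to 49 bp apart had 0.268 of the flanks between their start sites in sperm and 0.262 in ES cells on 8.36 and 11.8 fragments, and those 50 to 100 bp apart 0.172 and 0.202. At the other end pairs 400 to 500 bp apart had 0.254 in sperm and 0.367 in ES cells, and those over 500 and up to 600 bp apart 0.391 and 0.433.

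**Figure D3:**
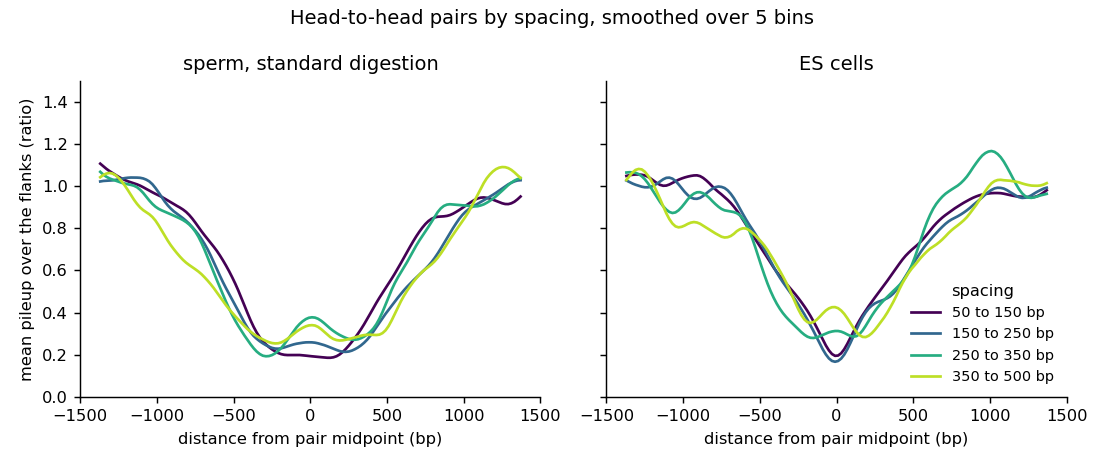
Mean pileup over the flanks (ratio, vertical axis, smoothed over 5 bins) against distance from the pair midpoint in bp for head-to-head pairs in 4 classes of spacing, in standard sperm (left) and ES cells (right). The trough measures 1580 bp in sperm and 920 bp in ES cells for the widest class, a width that depends on the level used. The midpoint of the wider classes was above the start sites with intervals that overlapped, and the difference was not tested.

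A few pairs went against the trough. Among 240 pairs at least 150 bp apart with 40 or more fragments in both libraries together, the highest signal between the start sites relative to the flanks, as a mean of both libraries, was at Bloc1s3/Trappc6a, C8g/Fbxw5, Uqcr10/Zmat5 and Wdr83/Wdr83os. Uqcr10 encodes a subunit of respiratory complex III, and it shares its promoter with Zmat5, a protein of the minor spliceosome. The 333 bp between them held 6.21 fragments in sperm, or 1.62 of the flanks, and 16.1 in ES cells, or 2.16 of the flanks. C8g (a complement component) and Fbxw5 (an F-box protein) held 1.73 fragments in sperm, at 2.23 of the flanks, and 6 in ES cells, at 2.11. Wdr83/Wdr83os, printed above, held 2.90 fragments in sperm, at 1.64 of the flanks, and 4.61 in ES cells, at 1.73. Bloc1s3/Trappc6a, genes of vesicle traffic, was high in sperm alone, at 3.64 fragments between and 0.873 in the flanks, and had 0.343 of the flanks in ES cells. All 4 rest on few fragments.

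At the low end, 8 of the 240 pairs held no fragment between their start sites in either library, and the 4 with the most flank signal are named. Empty windows were not counted at isolated start sites. Slc35a5/Atg3 pairs a nucleotide sugar transporter with an enzyme of autophagy, and its flanks held 31.6 fragments in sperm and 30.0 in ES cells. Wdr78/Mier1 had 20.4 flank fragments in sperm and 36.5 in ES cells. Ak6/Taf9, on the same strand 264 bp apart, had 16.7 in sperm and 36.0 in ES cells, and Recql/Golt1b, a DNA helicase and a Golgi protein, had 19.2 and 30.1. Each of the 4 thus had flank signal in both libraries and no fragment in the 155 to 264 bp between.

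Within 1000 bp of the start site, the members as a group held a smaller share of fragments in sperm than in ES cells, as other high-CpG start sites did. They took 5.00% of the fragments around start sites in standard sperm (4.92 to 5.09) and 5.85% in ES cells (5.77 to 5.93). As a log2 ratio, sperm over ES cells, the median was -0.21, with 869 of 1384 members (62.8%) lower in sperm, against -0.06 over all start sites, of which 53.3% were lower. High-CpG members had a median of -0.24, and so had the 9518 other high-CpG start sites. Within 200 bp of the start site the median turned to 0.19, beside 0.23 for all start sites, at a median of 3.68 fragments per member in both libraries together.

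Of the 905 members with 40 or more fragments, 13 were at least 2-fold higher in sperm, against 6.04% of 15092 start sites over the whole tables, and 79 were at least 2-fold lower, against 6.8%. As shares these are 1.44% and 8.73%. With a pseudocount of 5 fragments 11 members (1.22%) were higher, against 5.37% of all start sites, and 31 (3.43%) lower, against 2.68%. The filter sums both libraries, so members can pass it through 1 library alone. Among high-CpG start sites that are no members the shares were 2.28% and 9.51%, close to those of the high-CpG members, at 1.56% and 9.34%. The 434 pairs with 40 or more fragments had a median of -0.23, and ran from -1.96 to 1.38. For 14 of them the interval of the log2 ratio lay above 0, for 69 below, and for 351 it held 0. Intervals were not counted over other start sites, so these numbers support no statement on the pairs as a whole.

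**Figure D4:**
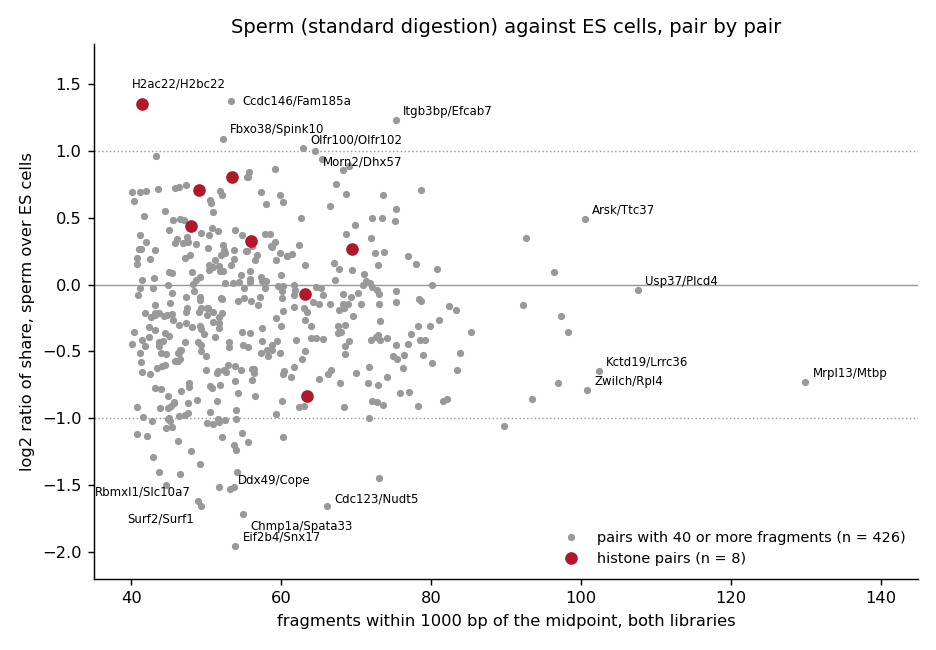
Log2 ratio of a pair's share in standard sperm over ES cells (vertical axis, with a pseudocount of 1 fragment) against its fragments in both libraries together, within 1000 bp of the midpoint, for 434 pairs with 40 or more. Dotted lines mark 2-fold, which 5 pairs pass upward (1.15%) and 38 downward (8.76%). Over all start sites these shares are 6.04% and 6.8%, and over high-CpG start sites that are no members 2.28% and 9.51%. The 8 histone pairs in red run from -0.83 to 1.35.

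The pairs lowest in sperm were Eif2b4/Snx17, Chmp1a/Spata33, Surf2/Surf1, Cdc123/Nudt5, Rbmxl1/Slc10a7 and Ddx49/Cope. Eif2b4, a subunit of the translation factor eIF2B, and Snx17, a sorting nexin of endosomes, lie 164 bp apart on chromosome 5 (mm9, 31495512 and 31495676). They had 7.18 fragments in standard sperm and 46.7 in ES cells, a log2 ratio of -1.96 (-3.55 to -1.01). Chmp1a, of the membrane-cutting ESCRT-III complex, and Spata33, a gene named for spermatogenesis, had 8.60 fragments in sperm and 46.3 in ES cells, a log2 ratio of -1.71 (-2.98 to -0.72). Cdc123/Nudt5, an assembly factor of eIF2 and a nucleotide hydrolase, had 10.9 fragments in sperm and 55.3 in ES cells, at -1.65. In the flanks of Eif2b4/Snx17, 1000 to 1500 bp from its midpoint, there were 15.8 fragments in sperm and 31.1 in ES cells. In all, 38 pairs were at least 2-fold lower in sperm, 33 of them head-to-head and 5 overlapping. These pairs passed the filter of 40 fragments mainly through ES cells, where they are high: 19 of the 38 reach it on ES fragments alone and 0 on sperm fragments alone, so their number supports no statement on the pairs as a whole.

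Of the 434 pairs with 40 or more fragments, 5 (1.15%) were at least 2-fold higher in sperm and 38 (8.76%) lower. These shares were 2.28% and 9.51% among high-CpG start sites that are no members, and 6.04% and 6.8% over all start sites. The smaller number of higher pairs thus supports no statement on close pairing. The pairs with the highest log2 ratios are named here. Ccdc146, which encodes a coiled-coil protein, and Fam185a had 34.0 fragments in standard sperm and 19.3 in ES cells, a log2 ratio of 1.38 (0.58 to 2.32), on chromosome 5 (mm9, 20930495 and 20930720). H2ac22/H2bc22, a pair of replication-dependent histone genes, had 26.4 in sperm and 15.1 in ES cells, at 1.35 (0.41 to 2.40). Itgb3bp, a centromere protein, and Efcab7 had 46.1 in sperm and 29.1 in ES cells, at 1.23 (0.55 to 1.98). Fbxo38/Spink10 followed at 1.09, the odorant receptor genes Olfr100/Olfr102 at 1.02 and Morn2/Dhx57, just under 2-fold, at 1.00. Olfr100/Olfr102 was the sole member pair of chemosensory receptors, and lies on the same strand 55 bp apart.

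The deepest pairs show what a single promoter looked like in these libraries. Mrpl13/Mtbp, a mitochondrial ribosomal protein and an Mdm2-binding protein, had 36.8 fragments in sperm and 93.1 in ES cells, the most of all pairs over both libraries, with 0.295 and 0.523 fragments in the 95 bp between its start sites. Arsk/Ttc37, a lysosomal sulfatase and a protein of the RNA-degrading SKI complex, had 48.6 in sperm and 51.9 in ES cells, with 0.573 fragments between its start sites in sperm and 0 in ES cells. Zwilch, of the kinetochore, and Rpl4, a ribosomal protein, had 27.6 in sperm and 73.2 in ES cells, and here the 455 bp between the start sites were filled, at 0.773 of the flanks in sperm and 1.91 in ES cells. Usp37/Plcd4 had 42.0 in sperm and 65.5 in ES cells. The 73 bp between its start sites were at 2.18 of the flanks in sperm and 0.758 in ES cells, on 1.77 and 1.46 fragments. Kctd19/Lrrc36 had 30.1 in sperm and 72.2 in ES cells, with 0.177 and 0.510 of the flanks between its start sites.

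Of 16 bidirectional promoters known from textbooks, 11 were members. Hspd1/Hspe1, the mitochondrial chaperonin and its partner, had 10.9 fragments in sperm and 23.9 in ES cells, with none between its start sites in either. Atm, the kinase of the DNA damage response, and Npat, a coactivator of histone genes, had 13.2 in sperm and 34.5 in ES cells, at a log2 ratio of -0.74 (-1.88 to 0.11). Surf2/Surf1, whose second gene serves cytochrome c oxidase assembly, had 7.94 in sperm and 41.3 in ES cells, at -1.66 (-3.08 to -0.66). Afmid/Tk1, with thymidine kinase, was at -1.13 (-2.54 to -0.19) and Mrpl18/Tcp1, with a subunit of the cytosolic chaperonin, at -0.97 (-2.25 to -0.12). For the other 8 the intervals held 0, among them Mcm4/Prkdc, the replicative helicase and the kinase of end joining, at 0.45, Paics/Ppat of purine synthesis at 0.16, Col4a4/Col4a3 of basement membrane at 0.01, Sirt3/Psmd13 at -0.13 and Mrps12/Sars2 at -0.53.

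Genes of several functions were closely paired at a higher share than the 6.20% of all start sites, and others at a lower one. Of the start sites on each list, 34.6% were members for replication-dependent histones (28 of 81), 25.9% for DNA replication and repair (41 of 158), 24.3% for the mitochondrial ribosome, respiratory chain and import (51 of 210), 21.1% for aminoacyl-tRNA synthetases (8 of 38) and 17.3% for the transcription machinery, splicing and RNA processing (47 of 271). Cilia, centrosome and kinesin genes had 11.5% (15 of 131), vesicle transport and Golgi genes 11.2% (28 of 250), ribosomal proteins and translation factors 10.7% (19 of 178), and the proteasome and ubiquitin enzymes 10.3% (18 of 175). Meiosis and germ cell genes had 4.17% (6 of 144), zinc finger proteins 3.23% (15 of 464), clustered protocadherins 1.75% (1 of 57), basement membrane collagens 33.3% (2 of 6, Col4a4/Col4a3) and chemosensory receptors 0.132% (2 of 1510). None of 252 developmental regulators, such as Hox, Sox and Wnt genes, was a member. These lists were chosen by gene name, and the membership of a gene follows from its position alone.

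In the comparison of sperm with ES cells, the median over all 434 pairs of 40 or more fragments was -0.23, 144 higher and 290 lower. The 33 mitochondrial pairs had a median of -0.21, 10 higher and 23 lower in sperm, with Mrpl13/Mtbp at -0.73 (-1.33 to -0.18). For 25 pairs of DNA replication and repair it was -0.18, 8 higher and 17 lower, with Pms1/Ormdl1, a mismatch repair gene and a regulator of sphingolipids, at -0.00251 (-0.69 to 0.68). The transcription and RNA list had -0.19 over 34 pairs, 10 higher and 24 lower, with Bckdha/Exosc5 at -0.64 (-1.39 to 0.05). Vesicle transport and Golgi genes had -0.35 over 15 pairs, 3 higher and 12 lower, with Ap5m1/Exoc5 at -0.02. Ribosomal proteins and translation factors had -0.24 over 12 pairs, proteasome and ubiquitin enzymes -0.13 over 10, zinc finger proteins -0.00403 over 9, cilia, centrosome and kinesins -0.27 over 8 and aminoacyl-tRNA synthetases -0.18 over 4. With no filter on fragments the medians were -0.36 over 13 zinc finger pairs, -0.35 over 13 pairs of cilia, centrosome and kinesins, and -0.50 over 7 synthetase pairs, against -0.21 over all 668 pairs, so the values of the small lists depend on the filter. The 3 pairs of the meiosis and germ cell list were all lower in sperm, from -1.71 at Chmp1a/Spata33 to -0.36 at Spata17/Gpatch2.

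Histone pairs differed from the others in 2 ways. In mice many H2A and H2B genes stand head-to-head in clusters, with an S-phase promoter between them. Of 8 histone pairs with 40 or more fragments, 6 were higher in sperm and 2 lower, with a median log2 ratio of 0.38, against -0.23 over all pairs. The share in sperm was highest relative to ES cells at H2ac22/H2bc22 (1.35), H2ac8/H2bc8 (0.80), with 28.8 fragments in sperm and 24.6 in ES cells, and H2ac12/H2bc12 (0.70), with 25.5 and 23.4. It was lowest at H2ac20/H2bc21, with 16.8 fragments in sperm and 46.6 in ES cells, at -0.83 (-1.77 to -0.05). Only H2ac22/H2bc22 and H2ac20/H2bc21 had intervals that left out 0. Over all histone start sites, members or not, the median was 0.35. Histone genes are near-identical copies, and the sources used here do not say how reads that map to several of them were treated, so their values are uncertain. H2ac23/H2ac24 was listed at 0 in both libraries.

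The second difference was the stretch between their start sites. Pooled over 10 head-to-head histone pairs, 179 to 334 bp apart, it held 0.696 of the flanks in standard sperm (0.479 to 0.971) and 0.373 in ES cells (0.233 to 0.564). The 575 other head-to-head pairs held 0.268 in sperm (0.245 to 0.293) and 0.253 in ES cells (0.234 to 0.274). Restricted to 250 to 350 bp, the 8 histone pairs held 0.670 in sperm (0.445 to 0.962) and 0.384 in ES cells (0.240 to 0.597), against 0.321 and 0.288 at 108 other pairs. In sperm the intervals did not overlap in either comparison, while in ES cells they did. The 8 pairs are among the 10, and histone pairs were picked out after their values were seen. The intervals cover counting error only, so they are no check on this difference. H2ac11/H2bc11 held 6.86 fragments between its start sites in sperm, at 1.01 of the flanks, and 0 in ES cells, where its flanks had 38.5. H2ac12/H2bc12 held 7.22 in sperm, at 0.960 of the flanks, and 3.86 in ES cells, at 0.607. H2ac8/H2bc8 held 5.03 in sperm, at 1.47, and 1.40 in ES cells, at 0.383. H2ac20/H2bc21 was filled in both, at 1.37 in sperm and 0.995 in ES cells, and H2ac15/H2bc15 low in both, at 0.261 and 0.352. Without the histone pairs the midpoint value of pairs 250 to 350 bp apart was 0.342 in sperm and 0.310 in ES cells.

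In the unspun and pellet titrations the stretch between the start sites was fuller at the highest dose than at the lowest, and in the supernatant titration the doses differed little. In unspun sperm it held 0.673 of the flanks at 0.5 units (0.474 to 0.927), 0.806 at 2 units, 1.07 at 10 units and 1.38 at 50 units (0.971 to 1.93). The supernatant stayed near its flanks, at 0.912 at 1 unit, 0.813 at 5 units, 0.837 at 20 units and 0.988 at 100 units (0.714 to 1.33). The pellet held 0.790 at 1 unit (0.374 to 1.49), 1.84 at 5 units, 1.38 at 20 units and 2.11 at 100 units (1.57 to 2.81). These values rest on 11.0 to 69.0 fragments between the start sites, and the neighbouring doses of a series had intervals that overlapped in every case. In the pellet at 1 unit Nubp2/Spsb3 alone held 18.1% of that signal, and without it the value was 0.647.

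With 1 slope shared by the 3 series, the log2 ratio between the start sites was 0.12 higher per doubling of the units, and 0.09 higher at isolated high-CpG start sites over upstream windows of the same lengths. By series the slope at the pairs was 0.16 in unspun sperm, 0.02 in the supernatant and 0.18 in the pellet, so the supernatant contributed little. For head-to-head pairs alone it was 0.14, -0.02 and 0.16, in the same order, so the supernatant series had no rise there. Downstream of the start site the slope was steeper, at 0.21 for high-CpG members and 0.23 for isolated high-CpG start sites. There the members held 0.629 of the flanks at 0.5 units in unspun sperm and 1.92 at 50 units, and in the pellet 0.746 at 1 unit and 2.53 at 100 units. Isolated start sites downstream held 0.532 and 1.92 at those unspun doses, and 0.799 and 2.22 in the pellet. The labels do not say how many sperm went into each titration digest, so its units cannot be placed beside those of the standard digestion, and the supernatant and pellet tables count reads with no fragment size given.

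**Figure D5:**
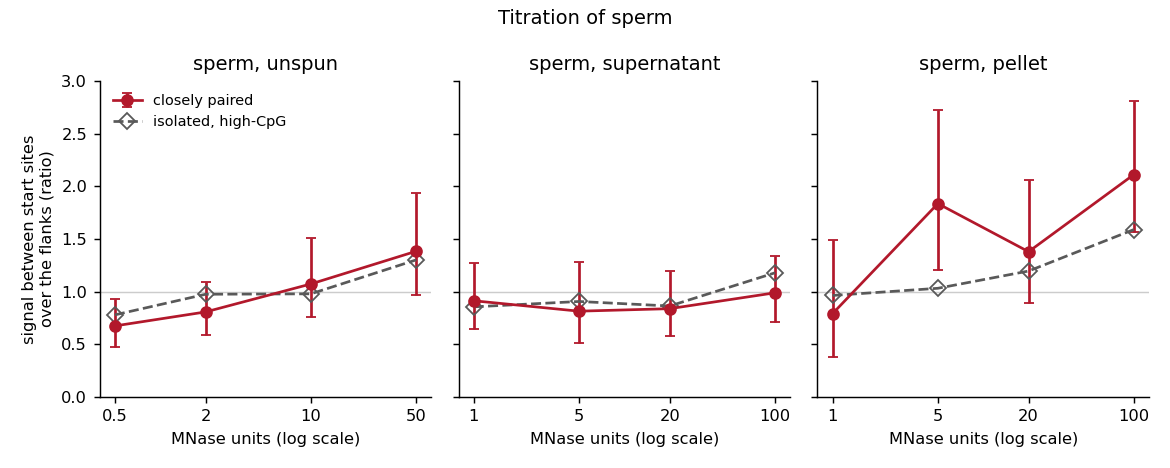
Signal between paired start sites over the flanks (ratio, vertical axis) against MNase units on a log scale, in unspun sperm, supernatant and pellet. Filled points are pooled pairs with 95% intervals for counting error, and open diamonds isolated high-CpG start sites over windows of the same lengths, and at 100 units in the pellet the pairs stand at 2.11 and the isolated start sites at 1.59.

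The share of fragments held by members varied over the titrations. It was 5.78%, 6.49%, 6.60% and 6.79% in unspun sperm from 0.5 to 50 units, where members are 6.20% of start sites. In the tables of classed start sites, where they are 6.90%, it was 6.73%, 7.18%, 6.69% and 6.52% in the supernatant from 1 to 100 units, and 5.34%, 6.40%, 7.33% and 7.39% in the pellet. Among high-CpG start sites alone, of which members are 10.0%, they held 10.2% in standard sperm and 10.2% in ES cells, and 8.49% to 10.7% in the titrations. Over all start sites the intervals of neighbouring doses overlapped in every series, and among high-CpG start sites the pellet shares were not in order of dose (8.49%, 9.32%, 10.2% and 9.80%).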

How the data were processed

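Per the submitters' processing notes, reads were aligned to mm9 with Bowtie (version not given) and handled with SAMtools 0.1.16. The deposited values are a signal. For ES cells, standard sperm and unspun sperm the authors made a pileup, in 200 bins of 20 bp, from fragments that the table names put at 135 to 165 bp. For the supernatant and pellet series they counted reads per bin, read here as 50 bp bins over 5000 bp to each side. The signal of the DNA shared by the rows of a pair then overlapped by 63.4%, against 5.24% with 20 bp bins. This overlap is the sum of the lower values over the sum of the higher ones. Rows run with transcription. Neither kind is scaled to depth. Of 17 samples, 3 were not analysed here (unspun ES cells, sperm input and sperm histone H3 ChIP). Titration units follow the titles and the units field, since the descriptions of the 5-unit and 20-unit pellets give other units.

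Of 28015 rows, 25876 have mRNA ids, at 22330 positions. Symbols came from RefSeq (GRCm38.p6, names only) for 21877, and 98 start sites within the spacing rule were left out because a symbol was missing. A fragment is the most frequent sum of isolated runs of signal, 22 in the pileup tables, 3 in the read tables and 2 in the 1-unit read tables, whose runs were narrower. Intervals are exact (Clopper-Pearson) on fragments, with those of members halved because each stretch enters through both start sites. Reads carry no molecular identifiers, so intervals and counts cover counting error only. Log2 ratios compare shares of the start-site total, with 1 fragment added, and the intervals are without it. No test was run, since each group held 1 library: values are descriptions. The members and lists were chosen with earlier results of these data known. Pairs were named by rule: 16 textbook pairs where members (1 is not reported here), the 6 highest and 6 lowest log2 ratios among pairs with 40 or more fragments, the 4 highest and 4 lowest signals between start sites at least 150 bp apart (ties at 0 ordered by flank signal), the 5 deepest pairs and the deepest pair of each list. Histone pairs and the pairs weighing most in a titration library were picked out after their values were seen. Scripts used Python 3.11.15, numpy 2.4.6, pandas 2.3.3, scipy 1.17.1 and matplotlib 3.10.9, and were tested on simulated data. Alternatives changed the flanks, windows, pseudocount, filter, spacing limits and the pairs used.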

Additional observations from a re-analysis of the deposited data

How the results depend on the processing

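No paired analysis was possible because each group held 1 library and the labels carry no replicate numbers. With flanks at 500 to 1000 bp, inside the wider trough, the upstream ratio was 0.332 in sperm and 0.282 in ES cells, the downstream ratio 0.299 and 0.450, and the ratio between start sites 0.368 and 0.306. The ratio between start sites was 0.240 in sperm and 0.224 in ES cells with a spacing of 50 to 300 bp, and 0.310 and 0.355 with 50 to 1000 bp. With both sites high-CpG, an alternative added after seeing the data, it was 0.251 in sperm and 0.235 in ES cells. Leaving out the histone pairs, also added then, left it at 0.257 and 0.268, within the intervals.

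The median log2 ratio over members turned to 0.19 with a window of 200 bp, and was -0.12 with 2000 bp and -0.0803 with a pseudocount of 5 fragments. Over all start sites the median was 0.23, -0.06 and 0.04 under these settings, so members stayed below it. Members past 2-fold numbered 35 higher and 134 lower of 1384 with no filter (2.53% and 9.68%, against 7.26% and 8.78% of all start sites), 1 and 3 of 53 with a filter of 80 fragments (1.89% and 5.66%, against 9.87% and 1.61%), and 11 and 31 of 905 with a pseudocount of 5 fragments. The share was 3.68% in sperm and 4.22% in ES cells with a window of 200 bp, and 10.2% in both among high-CpG start sites.

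The shared titration slope of 0.12 was 0.159, 0.0176 and 0.179 for unspun, supernatant and pellet series alone, and 0.10 and 0.11 without the lowest or the highest dose. The depleted stretch was also read 25% of the way from its lowest point to the flanks. It was then 780, 960, 980 and 1140 bp wide in sperm by rising spacing, and 340, 360, 700 and 660 bp in ES cells. Of 72 alternatives to 20 results, 38 stayed within the counting interval or the limits set, 33 moved and 1 reversed, and the cause was not tested. Depth limits single pairs, where 351 of 434 had intervals that held 0, and the titrations, which were read over pooled pairs.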
